A study of Mus musculus with 22 samples.

Results

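The data compared here are the lamina-associated domains (LADs) of mouse embryonic fibroblasts (MEFs) treated with DZNep and of untreated MEFs, called WT below. The members were every LAD of the 2 DZNep lists (embryos pup1.8 and pupx17) and of the 3 WT lists (embryos pup1.5, pup1.8 and pupx17). In each list, intervals on chromosomes 1 to 19 that lay under 25 kb apart were joined, and those over 100 kb were kept as LADs. This left 4371 LADs in the DZNep lists and 6052 LADs in the WT lists, of 22882 in all 11 lists of the series. Each list came from 1 Dam-lamin B1 and 1 Dam-only library, so the comparison rests on 10 of the 22 samples.

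All cells were primary C57bl/6 MEFs from e13.5 embryos, kept for at most 5 passages. DZNep cells received the drug for 18 to 24 h, then the virus that carries the Dam constructs, and were collected at 60 h. The labels give neither the dose nor the step from which the 60 h were counted. WT cells are labelled as having no treatment, so a vehicle control is not stated, and no harvest time is stated for them. No group carried a deletion or hairpin, and each of the 10 libraries came from cells given either the Dam-lamin B1 or the Dam-only virus. The embryo name ties WT pup1.8 to DZNep pup1.8 and WT pupx17 to DZNep pupx17, while WT pup1.5 has no DZNep partner. The labels number pup1.5 and pup1.8 as replicate 1 and pupx17 as replicate 2. The lists hold no expression or histone mark values, so neither the cell type nor the action of the drug on histones could be checked in them.

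LADs are long stretches of the genome that lie against the nuclear lamina, mostly gene-poor, late replicating and carrying the repressive histone marks H3K9me2 and, toward their borders, H3K27me3. In DamID, a bacterial DNA adenine methyltransferase fused to lamin B1 marks DNA that touches the lamina, and free Dam serves as a control for how open the DNA is. DZNep inhibits S-adenosylhomocysteine hydrolase, which raises S-adenosylhomocysteine and so inhibits methyltransferases. It is best known for lowering the Polycomb enzyme EZH2 and its mark H3K27me3, but it is not specific to that enzyme.

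The lists give the start and end of each interval and no signal or read number, so the depth is unknown and no interval can be weighted by it. In a bulk culture, contact in fewer cells and weaker contact in each cell cannot be told apart. With 3 lists against 2 there are 10 ways to split the lists, and the smallest p that an exact permutation over them allows is 0.1. Before joining, the lists held 4485 intervals in WT pup1.5, 7306 in WT pup1.8, 8917 in WT pupx17, 6783 in DZNep pup1.8 and 8686 in DZNep pupx17. Lists of the same embryo were therefore close in interval number, and pup1.5 stood apart. WT pup1.8 held the most LAD bases of the 5 lists, and values that it moves by more than 1.5 times are also given without it.

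For LAD number and for total LAD length, other splits of the lists differed by at least as much as DZNep and WT MEFs did. No difference could have given an exact permutation p below 0.1. The number was 1849 in WT pup1.5, 2187 in WT pup1.8 and 2016 in WT pupx17, against 2132 in DZNep pup1.8 and 2239 in DZNep pupx17. The DZNep values lay on both sides of the highest WT value. The mean was 2186 ± 75.7 LADs in DZNep (SD, n = 2) and 2017 ± 169 in WT (SD, n = 3). The difference was 168 LADs, about the SD of the WT lists (two-sided exact permutation test, p = 0.3). It depended on single WT lists, at 253 LADs without WT pup1.8, where the SD of the remaining WT lists was 118, and 84 LADs without WT pup1.5. It was 57.7 LADs with a minimum length of 200 kb and 832 intervals in the lists as deposited.

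Total LAD length was 1377 Mb in WT pup1.5, 1507 Mb in WT pup1.8 and 1429 Mb in WT pupx17. It was 1440 Mb in DZNep pup1.8 and 1457 Mb in DZNep pupx17. Both DZNep totals fell inside the range of the WT lists. LADs thus took up 57.0% to 62.4% of the 2415 Mb span of chromosomes 1 to 19 in WT and 59.6% and 60.3% in DZNep. The mean total in DZNep exceeded that in WT by 10.6 Mb, and 8 of the 10 splits were at least that far apart (p = 0.8, exact permutation, two-sided). Without WT pup1.8 the difference was 45.4 Mb, and without WT pup1.5 its sign turned, to -19.8 Mb.

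LADs had a lower mean length in both DZNep lists than in any WT list, where the exact permutation test could not give p below 0.1. Median LAD length was 393 kb in WT pup1.5, 357 kb in WT pup1.8 and 337 kb in WT pupx17, against 354 kb in DZNep pup1.8 and 320 kb in DZNep pupx17. These ranges overlapped, and the difference of the group means was -25.2 kb (two-sided exact permutation test, p = 0.4). It was -8.42 kb without DZNep pupx17, -9.84 kb without WT pup1.5, -37.8 kb without WT pupx17 and -41.9 kb without DZNep pup1.8, and -10.8 kb in the lists as deposited. Mean LAD length was 745, 689 and 709 kb in the WT lists of pup1.5, pup1.8 and pupx17. Both DZNep lists lay below all of these, at 675 kb in pup1.8 and 651 kb in pupx17. The group means, 714 ± 28.1 kb (SD, n = 3) and 663 ± 17.3 kb (SD, n = 2), differed by -51.2 kb, and the test gave p = 0.2 (two-sided exact permutation test, added after the data were seen).

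By length class, both DZNep lists held more short LADs than any WT list, while the pairs differed in how far each class moved. LADs of 100 to 250 kb numbered 601, 791 and 789 in WT pup1.5, pup1.8 and pupx17. There were 808 in DZNep pup1.8 and 909 in DZNep pupx17, both above the WT range (two-sided exact permutation test, p = 0.3). The difference was 17 in the pup1.8 pair and 120 in the pupx17 pair, and the difference of the group means, 131.5 LADs, was 68.5 without WT pup1.5 and 81 without DZNep pupx17. LADs of 500 to 1000 kb went in opposite directions in the pairs, with -28.6 Mb in pup1.8 and 20.6 Mb in pupx17. Long LADs, those of 1000 kb or more, covered 839, 873 and 871 Mb in the same WT lists. They covered 839 Mb in DZNep pup1.8 and 837 Mb in DZNep pupx17 (two-sided exact permutation test, p = 0.3). Within embryos the length in long LADs, DZNep minus WT, was -34.2 Mb for pup1.8 and -33.3 Mb for pupx17, where the WT lists of these embryos differed by 2.19 Mb. WT pup1.5, which has no partner, was as low as the DZNep lists. In group means the difference was -22.7 Mb, and -33.8 Mb without WT pup1.5.

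**Figure D1:**
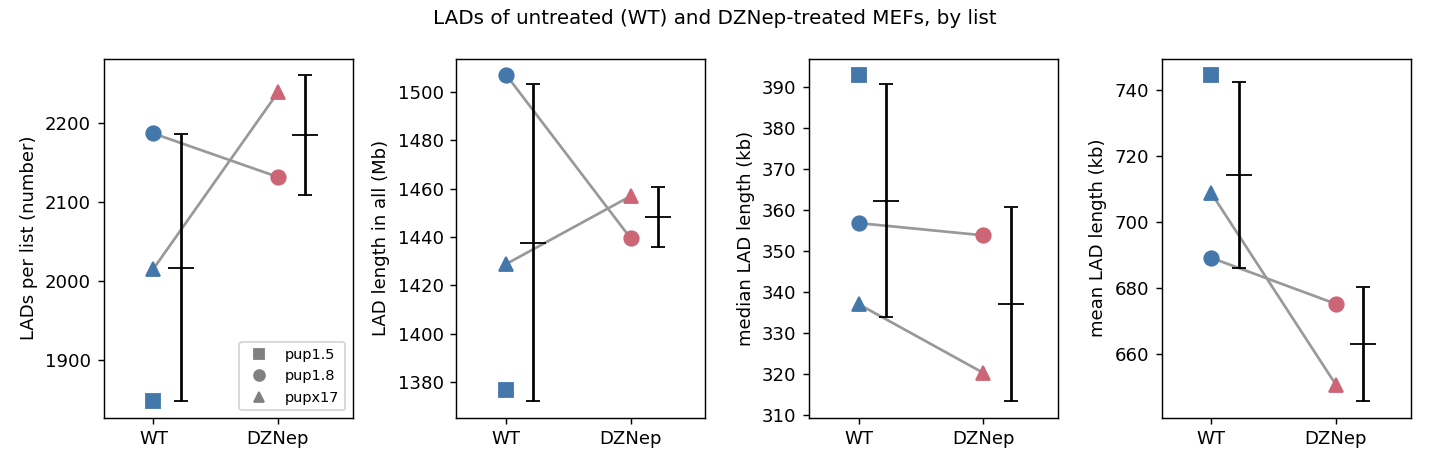
Number of LADs, total LAD length (Mb), median and mean LAD length (kb) in each of the 5 lists (squares pup1.5, circles pup1.8, triangles pupx17), with the group mean ± SD in black and grey lines joining lists of the same embryo; the vertical axes do not start at 0. Number and total run in opposite directions in the pairs, while both pairs fall in mean length, to 675 kb and 651 kb.

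The difference between the DZNep and the WT list of an embryo had opposite signs in the 2 embryos, with 1 list of each kind per embryo. In pup1.8 the difference, DZNep minus WT, was -55 LADs and -67.6 Mb. In pupx17 it was 223 LADs and 28.1 Mb. For comparison, the WT lists of these embryos differed from each other by 171 LADs and 78.3 Mb, with pup1.8 the higher. DZNep was thus lower in the embryo with the higher WT list and higher in the embryo with the lower WT list, and 2 pairs cannot give a sign-flip p below 0.5.

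Bases called in only 1 list of a same-embryo pair summed to more in WT than in DZNep for pup1.8 and to less for pupx17. In pup1.8, 122 Mb were called only in WT and 54.2 Mb only in DZNep. In pupx17, 69.7 Mb were called only in WT and 97.8 Mb only in DZNep. The WT lists of pup1.8 and pupx17 differed by more than either of these pairs, with 154 Mb only in pup1.8 and 75.4 Mb only in pupx17. Most of the difference within a pair was not found in the other pair. WT-only bases common to both pairs came to 14.3 Mb, or 11.7% of those in pup1.8 and 20.5% of those in pupx17. DZNep-only bases common to both pairs came to 8.86 Mb, or 16.3% and 9.06%. Some bases moved in opposite directions: 21.0 Mb were WT-only in pup1.8 and DZNep-only in pupx17, and 6.40 Mb the reverse.

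**Figure D2:**
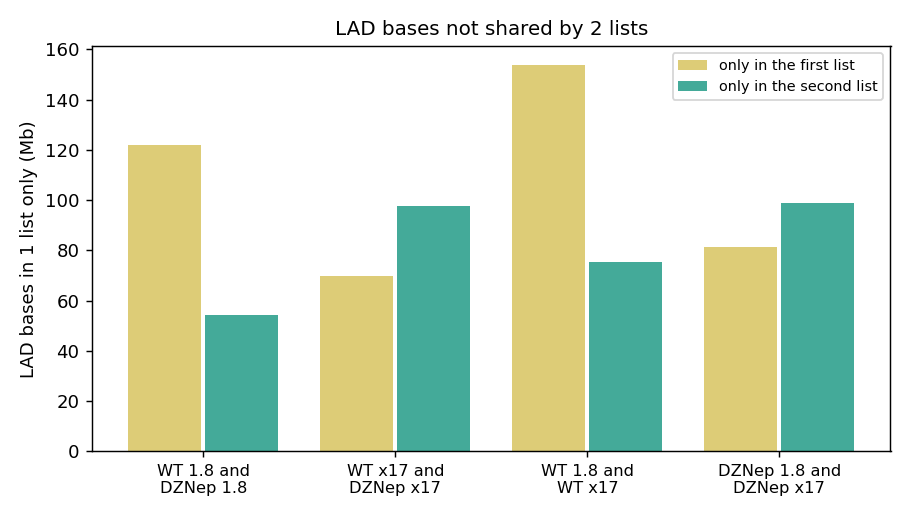
LAD bases (Mb) called in only the first or only the second of 2 lists, for the same-embryo WT and DZNep pairs and, beside them, the WT and the DZNep lists of the 2 embryos. The pup1.8 pair is larger on the WT side (122 Mb against 54.2 Mb), the pupx17 pair on the DZNep side (97.8 Mb against 69.7 Mb), and the 154 Mb called only in WT pup1.8 against WT pupx17 is the tallest bar.

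The longest stretches that changed within a pair were mostly variable among the other lists as well. In pup1.8 the longest WT-only interval was 469 kb on chromosome 19, 6429287 to 6898169 (mm9, as are all positions below). It lay outside the LADs of WT pup1.5 and WT pupx17 but was 99.3% covered in DZNep pupx17. The longest DZNep-only interval of that embryo was 416 kb on chromosome 3, 56167490 to 56583917. DZNep pupx17 covered 95.3% of it, WT pupx17 76.1% and WT pup1.5 none.

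In pupx17 the longest WT-only interval was 395 kb on chromosome 11, 33342599 to 33737702, of which 53.4% was in LADs of DZNep pup1.8, 51.1% in those of WT pup1.8 and 30.4% in those of WT pup1.5. The longest DZNep-only interval was 543 kb on chromosome 15, 54304354 to 54847599, and it was 67.4% covered in WT pup1.5 and 76.1% in WT pup1.8. None of these 4 intervals separated all WT lists from both DZNep lists.

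Across the genome the LADs of WT MEFs were retained in DZNep MEFs in a share that differed from that between WT lists by less than the spread between pairs. Of the LAD bases of a WT list, 93.7% ± 1.65 (SD, 6 WT-to-DZNep pairs, from 91.6% to 95.3%) lay in LADs of a DZNep list. Between WT lists the share was 92.4% ± 3.26 (SD, 6 ordered pairs, from 88.4% to 96.7%). Pairs share lists and are not independent, so these shares carry no test. Within embryos, 91.9% was kept in pup1.8 and 95.1% in pupx17.

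The Jaccard index, which divides the bases common to a pair of lists by those in their union, was highest for lists of the same embryo. It was 0.887 between WT and DZNep of pup1.8 and 0.890 between those of pupx17. It was 0.883 between the DZNep lists, 0.855 to 0.858 between WT lists, and 0.854 to 0.872 for the 4 WT and DZNep pairs of different embryos. The mean Jaccard distance between the groups minus that within them was -0.0111 (one-sided exact permutation test, p = 1), and it was -0.00198 without WT pup1.8, -0.000887 without WT pupx17 and -0.0199 without DZNep pupx17, and -0.0198 over same-embryo pairs as a replicate block. The same-embryo pairs all lie between the groups, which lowers this value, and the permutation takes no account of the pairing. Among lists of different embryos alone, the DZNep lists were more alike than any WT and DZNep pair, and the WT lists were not, with 1 DZNep pair and no test.

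Retention rose with LAD length in both comparisons. WT LADs of 100 to 250 kb kept 76.7% ± 7.73 of their bases in DZNep (SD, 6 pairs), and 71.3% ± 13.9 in another WT list (SD, 6 pairs). For LADs of 250 to 500 kb the shares were 87.4% ± 3.34 in DZNep and 84.1% ± 7.199 in WT. For LADs of 500 to 1000 kb they were 93.0% ± 1.28 and 92.0% ± 2.88. The longest class, 1000 kb or more, kept 97.7% ± 0.407 in DZNep and 97.4% ± 0.855 in WT. In every class the mean kept share under DZNep was within 1 SD of the share between WT lists.

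**Figure D3:**
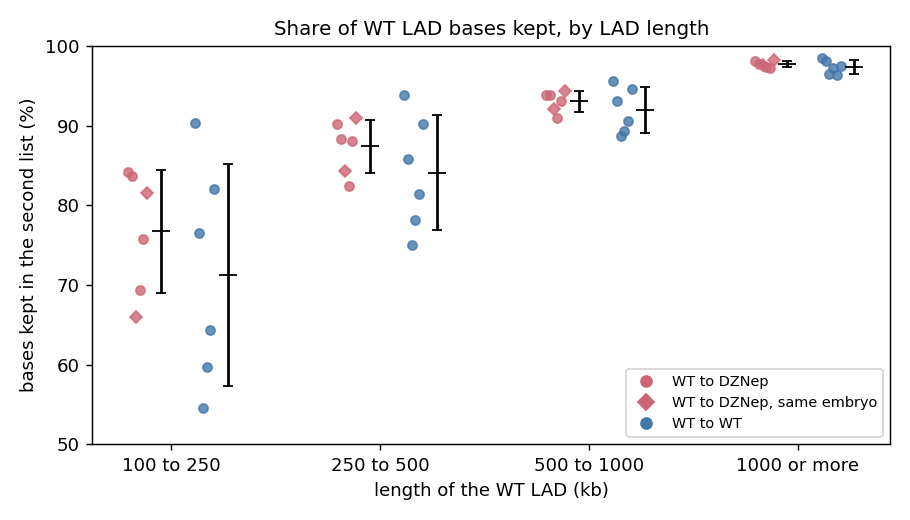
Share of the bases of WT LADs (%) that lie in LADs of a second list, by length class of the WT LAD (kb): red, a DZNep list (diamonds for the same embryo); blue, another WT list; each point is 1 ordered pair of lists and the black marks are mean ± SD over 6 pairs. The axis starts at 50%. In each class the points overlap, from 76.7% and 71.3% on average in the shortest to 97.7% and 97.4% in the longest.

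How many WT lists called a base went with how often DZNep lists did. DZNep LADs covered 98.2% ± 0.0609 of the bases called in all 3 WT lists (SD, n = 2). The share was 69.8% ± 0.253 for bases called in 2 WT lists and 35.7% ± 4.49 for those called in 1. Of the bases in no WT LAD, 2.92% ± 0.573 were in a DZNep LAD. A further comparison, added after the data were seen, left out each WT list in turn and asked how much of the LADs shared by the remaining 2 was missing from it. The left-out WT list lacked 4.22% ± 2.14 of them (SD, n = 3, from 1.91% to 6.13%). A DZNep list lacked 2.96% ± 0.531 of the same bases (SD, 6 comparisons, from 2.23% to 3.70%), so within the range of a WT list. That range pools different references. With WT pup1.8 left out, the DZNep lists lacked 2.60% and 2.23% and WT pup1.8 1.91%. With either other WT list left out, both DZNep lists lacked less than it did. Outside the LADs of the other WT lists, the left-out list called 6.16% ± 3.89 of the bases (SD, n = 3) and a DZNep list 4.94% ± 1.41 (SD, 6 comparisons). With WT pup1.5 left out, both DZNep lists called more than it did (3.17% and 3.90% against 2.41%). With WT pup1.8 left out both called less, and with WT pupx17 left out the DZNep lists lay on either side of it.

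Bases that separated all lists of one group from all of the other were counted next. Lost bases, called in all 3 WT lists and in neither DZNep list, summed to 5.70 Mb in 338 intervals, or 0.449% of the 1270 Mb called in every WT list (one-sided exact permutation test, p = 0.8). Gained bases, called in both DZNep lists and in no WT list, summed to 6.69 Mb in 340 intervals, or 0.823% of the 813 Mb outside all WT LADs (one-sided exact permutation test, p = 0.6). The intervals were short, with a median of 5.56 kb for lost and 5.47 kb for gained ones, and 12 lost and 20 gained intervals reached 100 kb. Both sums require every list and so grow when 1 is left out, to between 10.3 Mb (without WT pup1.8) and 22.8 Mb (without DZNep pupx17) for lost bases. Gained bases then came to between 8.86 Mb (without WT pup1.5) and 27.0 Mb (without DZNep pup1.8), with 23.3 Mb without WT pup1.8. With a WT call in at least 2 of the 3 lists they were 29.4 Mb lost and 35.7 Mb gained.

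Most changed bases lay at the edges of LADs. Of the 338 lost intervals, 295 lay at an edge of a block called in all WT lists, 34 in its interior, and 9 were whole blocks. These made up 66.0%, 21.7% and 12.3% of the lost bases. Within 25 kb of a block boundary lay 51.4% of lost bases, where 8.24% of all block bases lie. Among the 340 gained intervals, 305 extended a WT LAD at its edge, 19 lay inside a gap between WT LADs, and 16 filled a whole gap. They held 60.9%, 32.0% and 7.03% of the gained bases, and 45.5% of gained bases lay within 25 kb of a WT boundary, against 10.8% of all gap bases. These shares describe where the changes lay and carry no test of DZNep.

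Short blocks lost a larger share of their bases than long ones. Blocks called in all WT lists and up to 100 kb long lost 5.39% of their bases in both DZNep lists, those of 100 to 250 kb lost 1.52%, and those of 1000 kb or more lost 0.165%. In the same way gaps up to 100 kb were filled for 3.87% of their bases and gaps of 1000 kb or more for 0.503%. By place along the chromosomes, the last of 3 equal parts of each span held 2.41 Mb of the lost bases (0.595% of its blocks) and 1.68 Mb of the gained bases (0.572% of its gaps). In the first part the shares were 0.398% of blocks and 1.07% of gaps. These shares by place carry no test.

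Block by block, few LADs common to all WT lists were reduced in both DZNep lists. Every WT list holds these blocks by definition, so no WT rate can stand beside the shares below. Of 2105 such blocks, 15 (0.713%) had at least 50% of their bases missing from both DZNep lists. The numbers were 53 blocks (2.52%) for DZNep pup1.8 alone and 51 blocks (2.42%) for DZNep pupx17 alone. All 15 were short: 8 were up to 100 kb long and 7 were of 100 to 250 kb, while 0 of the 1232 blocks of 250 kb or more were reduced in both lists. Among the blocks over 100 kb the share was 7 of 2015 (0.347%). The longest of them spanned 223 kb on chromosome 8, 110239821 to 110462369, and lacked 50.7% of its bases in DZNep pup1.8 and 50.1% in DZNep pupx17. Of the 1889 gaps between WT LADs, 27 (1.43%) were at least 50% filled in both DZNep lists, 22 of them gaps of up to 100 kb. The lists alone filled 103 gaps (5.45%) in pup1.8 and 108 gaps (5.72%) in pupx17.

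The 5 longest lost intervals were between 120 kb and 147 kb. The longest lay on chromosome 4, 68471278 to 68618328, at the edge of a 1571 kb block of which each DZNep list kept over 90% (90.6% in pup1.8 and 90.5% in pupx17). The deposited DZNep intervals, before joining and filtering, covered none of it. This edge was also missing or nearly so in the MEFs treated with the histone deacetylase inhibitor TSA (0.305% and 0% covered) but present in those treated with the G9a inhibitor BIX01294 (97.8% and 98.9%).

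A lost block on chromosome 5, 15643647 to 15788573, was a whole block of 145 kb, and so was one of 143 kb on chromosome 4, 155411663 to 155554169. Both were called in part in the deposited DZNep lists, in pieces that did not pass the length filter. For the chromosome 5 block these pieces covered 68.5% in pup1.8 and 40.1% in pupx17, and for the chromosome 4 block 49.9% and 61.7%. In the WT lists of pup1.5, pup1.8 and pupx17, deposited intervals covered 100%, 83.5% and 75.9% of the chromosome 5 block and 90.9%, 100% and 100% of the chromosome 4 block. The remaining lost intervals of this set lay at block edges: 128 kb on chromosome 14, 123323184 to 123451589, and 120 kb on chromosome 3, 10001134 to 10120816. The 258 kb block that holds the latter was 53.3% covered in DZNep pup1.8 and 0% in DZNep pupx17, so it was absent as a whole from that list. Of the chromosome 14 interval 36.7% and 37.8% was still covered by deposited DZNep intervals, and of the chromosome 3 interval 0% and 8.89%. The WT lists, in the same order, covered 100%, 66.6% and 72.8% of the former and 100%, 100% and 59.0% of the latter.

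The 5 longest gained intervals were between 155 kb and 222 kb, and 4 of them lay inside a gap between WT LADs, away from its edges. The longest extended a LAD on chromosome 1, 61265974 to 61487690, into a 4055 kb gap. Deposited intervals covered 93.2% of it in DZNep pup1.8, 100% in DZNep pupx17 and 16.1% in WT pupx17, with none in the other WT lists. The next were 210 kb on chromosome 7, 89268596 to 89478581, and 173 kb on chromosome 12, 80056843 to 80229519. The last were 171 kb on chromosome 16, 87054096 to 87224707, and 155 kb on chromosome 7, 77795748 to 77950566. In all 5, at least 1 WT list held shorter deposited intervals, up to 66.9% of the length for WT pup1.8 in the last. Of these the chromosome 16 interval was in no LAD of the other treatments, whereas both BIX01294 lists covered 100% of the last.

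LAD boundaries of WT MEFs had a partner nearby in DZNep lists more often than in other WT lists, a description that carries no test because pairs share lists. A boundary of the same type (start or end) lay within 25 kb of a WT boundary for 55.5% ± 2.93 of them in DZNep lists (SD, 6 pairs) and for 48.5% ± 3.21 in other WT lists (SD, 6 pairs). The same-embryo pairs gave 55.8% in pup1.8 and 61.0% in pupx17, and pairs of different embryos, which all pairs of WT lists are, 54.1% ± 1.23 (SD, 4 pairs). The share was 39.8% against 33.6% within 10 kb and 75.3% against 68.5% within 100 kb. In the reverse direction, DZNep boundaries had a partner within 25 kb in WT lists for 51.3% ± 4.68 (SD, 6 pairs), and for 48.9% ± 3.55 in different embryos (SD, 4 pairs), close to the share between WT lists. At the same base were 3.44% ± 1.21 of WT boundaries in DZNep and 2.504% ± 0.550 in WT (SD, 6 pairs each).

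The displacement of boundaries had no common direction over the pairs. Among boundaries with a partner within 100 kb, the median displacement in DZNep, outward positive, was -0.393 kb in the pup1.8 pair and 0 kb in the pupx17 pair. Over all WT-to-DZNep pairs it ran from -0.609 kb to 2.01 kb, and between WT lists from -3.03 kb to 3.02 kb. In pup1.8, 42.5% of boundaries lay farther out and 52.1% farther in, and in pupx17 48.3% and 44.9%.

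A difference in one direction was seen in the continuity of LADs. A break is counted here where a gap between neighbouring LADs of one list lies wholly inside a LAD of another, which after joining makes it 25 kb or longer. WT LADs held 286 and 321 breaks from DZNep pup1.8 and pupx17 in WT pup1.5, 306 and 367 in WT pup1.8, and 310 and 281 in WT pupx17. In the opposite direction, DZNep pup1.8 LADs held 236, 201 and 256 breaks from WT pup1.5, pup1.8 and pupx17, and DZNep pupx17 LADs held 257, 249 and 206. All counts of the first kind were above all counts of the second.

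The means were 312 ± 30.9 breaks of DZNep in WT LADs and 234 ± 24.96 breaks of WT in DZNep LADs (SD, 6 pairs each), beside 285 ± 22.7 between WT lists. The excess, 77.7 breaks a pair, was larger than for any other of the 10 splits (p = 0.1, two-sided exact permutation, which is the lowest p attainable). This measure was chosen after the data were seen. It moved with the processing: with a minimum length of 200 kb the excess was 46.3 breaks (p = 0.1 by the same exact permutation test), with gaps under 50 kb joined the excess was 30.8 breaks (p = 0.6 by the same exact permutation test), and in the lists as deposited it was 246 breaks (p = 0.7). Left-out lists gave 60.8 to 88.0 breaks, the lowest without WT pup1.8. The 10 splits take no account of the pairing by embryo. Over the same-embryo pairs the mean excess was 90 breaks, and 2 pairs cannot give a sign-flip p below 0.5.

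Seen by LAD, 13.2% ± 1.28 of WT LADs (267 ± 30.4) held 2 or more LADs of a DZNep list (SD, 6 pairs). The share was 9.44% ± 0.786 for DZNep LADs in a WT list, and 12.2% ± 0.799 for WT LADs in another WT list. In the matched pairs 265 WT LADs were divided in DZNep and 181 DZNep LADs in WT for pup1.8, and 239 and 195 for pupx17. Between the DZNep lists, 10.6% ± 0.625 of LADs were divided (SD, 2 ordered pairs), with 268 and 262 breaks. DZNep LADs were thus divided in a smaller share than WT LADs also by the other DZNep list, a description with no test.

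LADs of 1000 kb or more held breaks roughly in proportion to their length. They took up 57.9% to 60.9% of LAD bases in WT lists and 58.3% and 57.5% in DZNep lists. Of the breaks, 55.7% ± 3.19 of DZNep in WT LADs and 52.5% ± 6.12 of WT in DZNep LADs lay in them (SD, 6 pairs each). They held 173 ± 16.2 breaks of DZNep in WT LADs and 124 ± 23.0 of WT in DZNep LADs, with 162 ± 19.8 between WT lists (SD, 6 pairs each). Breaks were narrow, with a mean over pairs of the median width of 37.5 kb for DZNep in WT LADs and 38.3 kb for the reverse.

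Some breaks recurred between embryos. Within LAD blocks shared by WT pup1.8 and WT pupx17, DZNep pup1.8 had 151 breaks and DZNep pupx17 had 157, of which 42 places (1.54 Mb) were broken in both. In blocks shared by the DZNep lists, WT pup1.8 had 123 breaks and WT pupx17 had 124, of which 14 places (0.4003 Mb) were broken in both. In blocks shared by all 3 WT lists, DZNep pup1.8 had 104 breaks and DZNep pupx17 had 109, of which 23 places (0.868 Mb) were broken in both. In blocks shared by the DZNep lists, 5 places were broken in all 3 WT lists. That count needs 3 lists to agree, so it cannot be set against the 23. The 42 and 14 places, which each need 2 lists, lay in blocks of 1353 Mb and 1358 Mb. The overlap to be found without DZNep was not tested. The widest of the 23 was 107 kb on chromosome 5, 120536606 to 120643443, in a 753 kb block.

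**Figure D4:**
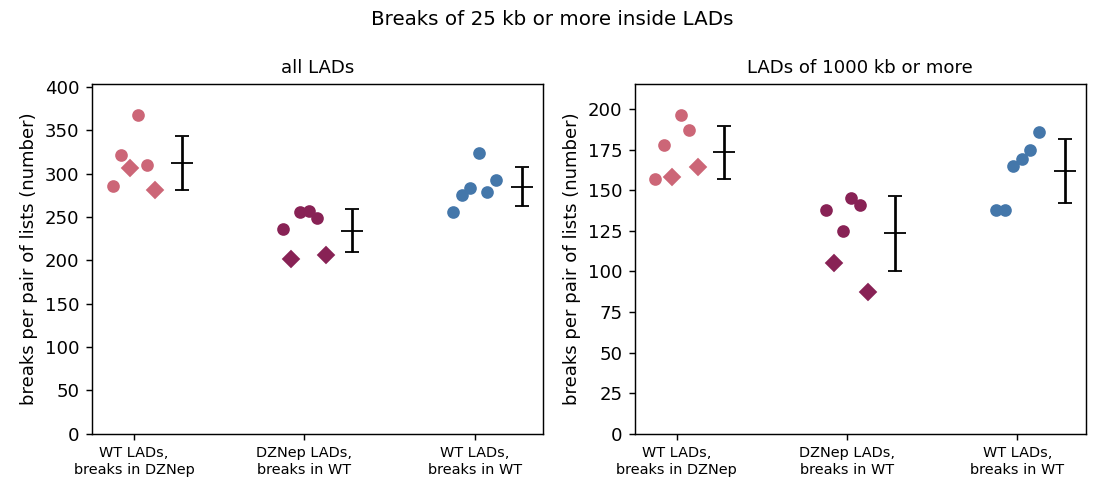
Breaks per ordered pair of lists (number), in all LADs and in LADs of 1000 kb or more: DZNep breaks in WT LADs, WT breaks in DZNep LADs and WT breaks in WT LADs; diamonds are same-embryo pairs, black marks are mean ± SD over 6 pairs. The lowest count of the first kind (281) is above the highest of the second (257), while the counts between WT lists overlap both.

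By chromosome, the mean LAD coverage was higher in DZNep on 16 chromosomes and lower on 3, namely 8, 9 and 19. This count turned with single lists: it was 1 higher (chromosome 11) and 18 lower without WT pup1.5, 19 higher and 0 lower without WT pup1.8, and 9 higher and 10 lower without DZNep pupx17. On 0 of 19 chromosomes (0%) did the lists of the groups fail to overlap, and the lowest adjusted p was 1 (exact permutation tests, Benjamini-Hochberg over 19 chromosomes; none reached an unadjusted p of 0.1). The highest difference of the means was 1.82 Mb on chromosome 11, from 56.0 ± 3.97 Mb in WT (SD, n = 3) to 57.8 ± 1.001 Mb in DZNep (SD, n = 2). The lowest was -1.22 Mb on chromosome 9, from 69.4 ± 3.25 Mb to 68.2 ± 0.759 Mb. Both were below the SD of the WT lists.

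Within embryos the chromosomes went with the genome-wide direction of each pair. In pup1.8 all 19 chromosomes had less LAD in DZNep, from -1.57% of the WT coverage on chromosome 12 to -10.2% on chromosome 19. In pupx17, 15 chromosomes had more, up to 5.82% on chromosome 11, and 4 had less (3, 8, 9 and 19). Chromosome 19 was lower in both embryos, with -3.43 Mb in pup1.8 and -1.23 Mb in pupx17. LADs there covered 28.8 Mb in WT pup1.5, 33.7 Mb in WT pup1.8 and 30.8 Mb in WT pupx17, against 30.2 Mb in DZNep pup1.8 and 29.6 Mb in DZNep pupx17. Both DZNep values were thus above WT pup1.5.

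The share of WT LAD bases kept in DZNep was highest on chromosome 7, at 96.1% ± 1.77 (SD, 6 pairs), and lowest on chromosome 19, at 90.4% ± 3.69. It was above the share kept between WT lists on 18 chromosomes and below it on 1, chromosome 19, where WT lists kept 91.2% ± 5.50. That difference was smaller than the spread between pairs.

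**Figure D5:**
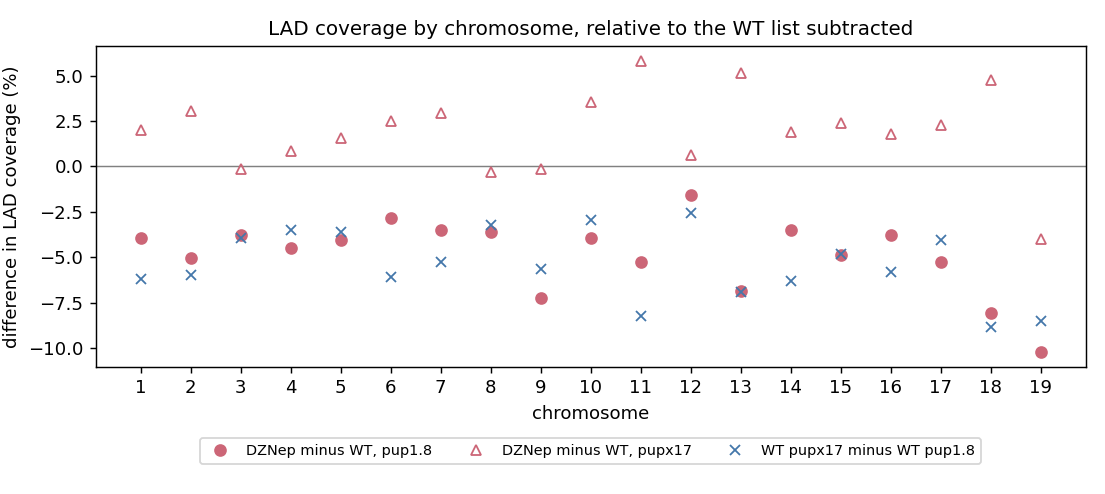
Difference in LAD coverage on each chromosome, in percent of the WT list subtracted: filled circles, DZNep minus WT in pup1.8; open triangles, DZNep minus WT in pupx17; crosses, WT pupx17 minus WT pup1.8. The pup1.8 circles are all below 0, from -1.57% to -10.2%, 15 of the pupx17 triangles are above 0, and the crosses run from -2.57% to -8.83%; circles and crosses subtract the same list, WT pup1.8.

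The other drugs of the series were given to MEFs of the same 2 embryos, at doses the labels do not state. DZNep lists kept 91.9% and 95.1% of the same-embryo WT LAD bases, and TSA lists 84.9% and 86.5%. The difference was 7.85 percentage points, with no overlap (two-sided exact permutation test over 6 splits, p = 0.333, the smallest possible). Lost bases were 58.2 Mb for TSA and 5.70 Mb for DZNep, counted against the same WT lists. BIX01294 lists kept 93.5% and 97.3%, a difference of -1.84 points for DZNep (two-sided exact permutation test, p = 0.667). That test takes no account of the embryo, and DZNep kept less than BIX01294 in both embryos. Total LAD length was 1481 and 1536 Mb in BIX01294 lists, above both DZNep lists, a difference of -60.0 Mb for DZNep (two-sided exact permutation test, p = 0.333). In TSA lists it was 1356 and 1302 Mb, below both DZNep lists, a difference of 119 Mb (two-sided exact permutation test, p = 0.333). Median LAD length in DZNep differed by -32.8 kb from BIX01294 (two-sided exact permutation test, p = 0.333) and by 5.23 kb from TSA (p = 1 by the same exact permutation test).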

How the data were processed

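DamID-seq was done on primary MEFs. The paper names this series among other datasets it discusses, so its DamID methods were assumed to hold for these lists. There the authors called LADs with LADetector, which segments the Dam-lamin B1 over Dam-only signal. The deposited files hold 1 list per pair of libraries. The aligner is not given in the sources used here, and the build is mm9 per the labels' processing notes. The deposited lists give interval starts and ends (counted from 0, converted here to count from 1) and no score. They still held gaps under 25 kb and intervals of 100 kb or less, so the joining and length filter of those methods were applied here. A list that came from fewer reads or weaker enrichment would carry other calls with no trace of it, and precision rests on the 3 WT and 2 DZNep lists. Whether cultures of 1 embryo were infected separately is not stated, so p-values measure the spread between these lists.

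Groups, embryos and replicate numbers came from the labels. The [experiment] library was taken as Dam-lamin B1 and the [control] library as Dam-only. Libraries with the same embryo name were paired. Same-embryo WT and DZNep lists had Jaccard indices of 0.887 and 0.890. The index was at most 0.872 for WT and DZNep lists of different embryos and 0.883 between the DZNep lists. Lists of a pair also share a replicate number (1 for pup1.8, 2 for pupx17), so embryo and replicate cannot be told apart in these pairs. Spans of chromosomes were set by the outermost bases of all 11 lists. Exact permutation over the 10 splits was used to compare group means, and it takes no account of the pairing by embryo. Intervals named are the 5 longest lost and gained, the longest of each kind in each matched pair, the longest block reduced in both DZNep lists and the widest recurrent break, the last pair chosen after their values were seen, as are the chromosomes outside the extremes. The members, measures and lists were chosen with earlier results of these data known. No mm9 genome or annotation was used here, so genes and sequence in the intervals are not reported. Signal tracks were not used here.

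Python 3.11.15, numpy 2.4.6 and matplotlib 3.10.9 were used. Tested on simulated data made from a list of 1849 LADs, the interval arithmetic gave 0 mismatches in 1200 checks and recovered 49.4 Mb of loss for 49.3 Mb planted. Because the simulated data came from a single list, this recovery checks the arithmetic only. How well lost bases are found among lists that differ as much as the WT lists was not tested. The alternatives tried were the lists as deposited, a minimum length of 200 kb, joining under 50 kb, chromosome X added, a replicate block on the embryo, dropping each list in turn, boundary distances of 10 and 100 kb, and a WT call in at least 2 lists.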

Additional observations from a re-analysis of the deposited data

Results flagged for a closer look

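The DZNep minus WT difference in LAD number and in total LAD length was noted because it had opposite signs in the 2 embryos. The number differed by -55 LADs in pup1.8 and 223 LADs in pupx17, and the total length by -67.6 Mb in pup1.8 and 28.1 Mb in pupx17. The difference between embryos was not tested, since each embryo gave 1 WT and 1 DZNep list. Beside it, WT pup1.8 held 78.3 Mb more LAD than WT pupx17, while DZNep pup1.8 held 17.4 Mb less than DZNep pupx17.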

How the results depend on the processing

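Of 148 alternative values for 14 results, 106 kept their direction or moved by less than the spread used to judge them. Total LAD length reversed, from 10.6 Mb to -4.65 Mb with a minimum length of 200 kb and to -19.8 Mb when the embryo was the replicate block. With lists left out it ran from -19.8 Mb (without WT pup1.5) to 45.4 Mb (without WT pup1.8). The replicate block gave 84 LADs (p = 1, exact sign-flip permutation test) and a lost length of 14.3 Mb. With 2 pairs the sign-flip p cannot go below 0.5, so this block could not decide any result. The block value of lost bases near boundaries was 48.6%. Lost length requires every list, so it rose when a list was dropped, to between 10.3 Mb and 22.8 Mb, and gained length to between 8.86 Mb and 27.0 Mb. With a WT call in at least 2 lists they were 29.4 Mb and 35.7 Mb. Boundaries matched were 51.8% in the lists as deposited, 47.7% with gaps under 50 kb joined, 39.8% at 10 kb and 75.3% at 100 kb. Lost bases near boundaries were 76.9% as deposited, 39.8% with 200 kb, 38.4% with joining under 50 kb, 29.7% at 10 kb, 82.6% at 100 kb, and 39.8% to 48.6% with lists left out. Gained bases near boundaries were 76.3% as deposited, 32.8% with 200 kb, 28.4% at 10 kb, 72.9% at 100 kb, and 33.8% to 49.8% with lists left out. The kept share of LADs of 100 to 250 kb was 86.7% as deposited and 67.8% with 200 kb. For LADs of 1000 kb or more it was 98.5% as deposited, and 97.1% both with 200 kb and with joining under 50 kb. The values at other boundary distances follow from the distance itself. For the remaining shifts the cause was not tested. No test could pass 0.05, so exact p-values say nothing of stability here, and depth could not be weighed because the lists hold none.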
